A study of Mus musculus with 6 samples.

Results

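The interferon regulatory factors (IRFs) are a family of transcription factors, and 8 of their genes (Irf1, Irf2, Irf3, Irf4, Irf5, Irf7, Irf8 and Irf9) were followed in splenic monocytes of female C57BL/6 mice, out of 46072 gene identifiers in the table. The members were taken by gene symbol, after a fall of Irf4 was already known from these libraries, and the question was whether the other members shared it. Con mice (n = 3) had received water by gavage for 6 days, and Van mice (n = 3) had received vancomycin, an antibiotic that is poorly absorbed from the gut, at 2 mg per day for the same 6 days. Both groups were then rested for 6 to 8 days per the labels, with 8 days named in the text of the study for these mice, and monocytes were purified from the spleen by negative selection on magnetic beads. Polyadenylated RNA was sequenced in 6 libraries, which the labels number as replicates, from 3 mice per group. The mice carried no engineered allele in the labels, and no age is given there.

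IRF proteins share a DNA-binding domain that recognises repeats of the letters GAAA, the core of the interferon-stimulated response element. IRF3, IRF5 and IRF7 lie latent in the cytoplasm until kinases below Toll-like receptors or cytosolic nucleic acid sensors phosphorylate them, and they then drive interferons and inflammatory cytokines. IRF9 is the DNA-binding subunit of the complex ISGF3, which carries the type I interferon signal to the nucleus. IRF1 is induced by interferon gamma and activates antigen-presentation genes, whereas IRF2 competes for many of the same sites. IRF4 and IRF8 are found mainly in immune cells and bind DNA with partners such as PU.1 and BATF. IRF8 directs monocyte and dendritic cell development, and IRF4 is known in plasma cells, dendritic cells and alternatively activated macrophages, where it also competes with IRF5 for the Toll-like receptor adaptor MyD88.

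The estimated counts summed to between 43383900 and 61834400 per library, and 16138 genes passed a filter on low counts. All 8 members passed it. Summed over 11 monocyte markers, the level ranged in Con from 22116 to 23201 CPM (estimated counts per 1000000 of the scaled library total) and from 21219 to 22220 in Van. Of these markers, Ccr2 and Fcgr1 were lower in Van past an adjusted p of 0.05, and 0 to 2 of the 11 were called in the 6 fits that each left out a mouse. Erythroid markers stood apart, with a summed level of 81.2 to 169 CPM in Con and 282 to 622 CPM in Van, and all 8 of their tested genes were higher in Van, 5 of them past an adjusted p of 0.05. That count was 0 without Con replicate 1, 2 or 3 or Van replicate 2, it was 1 without Van replicate 1 and 4 without Van replicate 3, and the direction stayed for all 8. The RNA is from bulk cells, so that fewer cells of a type and less RNA per cell cannot be told apart. The p-values measure the spread between these 6 libraries.

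Of the 8 members, only Irf4 fell in Van mice at an adjusted p of 0.05 or less with all 6 mice in the edgeR fit, and no member did in any of the 6 fits that left out a mouse. Across all genes tested, 322 of 16138 (2.00%) passed that threshold in the quasi-likelihood test of edgeR, adjusted by the Benjamini-Hochberg method. In CPM, Irf4, Irf7 and Irf8 were each lower in all 3 Van mice than in any Con mouse, which held for 11.0% of all genes. Groups that did not overlap in CPM in either direction were found for 22.5% of all genes. Scaled also to transcript length (FPKM), Irf4 and Irf7 stayed separate, Irf8 overlapped, and Irf2 was separate and higher in Van. Irf4, Irf7 and Irf8 had an unadjusted p under 0.05 in edgeR, as did 16.5% of all genes. Of the 8 members, 5 had a fitted difference below 0, against 50.4% of all genes, and the median log2 fold change of the 8 was -0.09 against -0.0014 over all genes tested. Without Con replicate 1, whose Irf1 level stood apart, the median of the family was -0.0019. DESeq2 called Irf4 and Irf7, where it called 7.34% of the genes to which it gave an adjusted p.

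**Figure D1:**
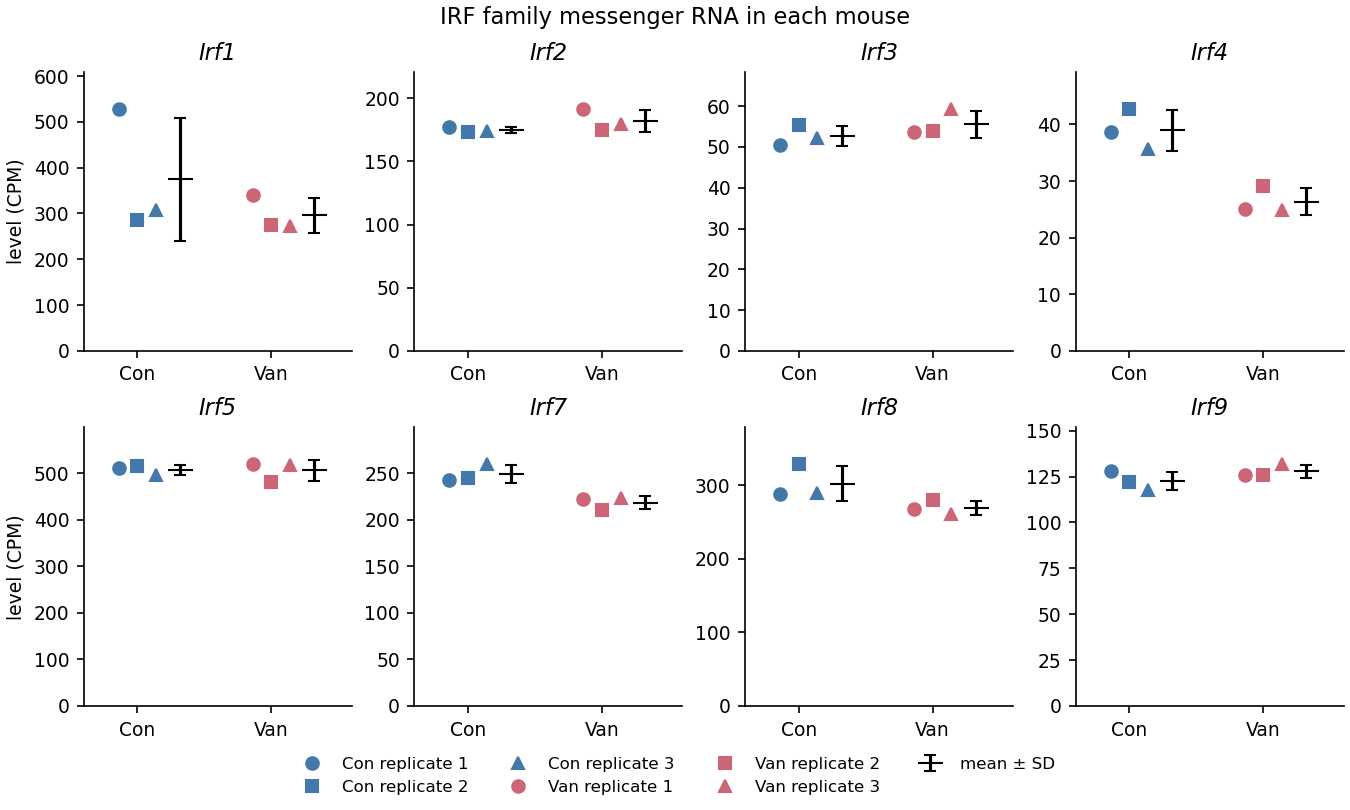
Level of each member in CPM (y axis, from 0) in the 3 Con and 3 Van mice (x axis), with the mean and SD of each group. Irf4 ranged from 35.6 to 42.8 CPM in Con and from 24.9 to 29.2 CPM in Van, and Irf1 was highest in Con replicate 1 at 529 CPM.

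Irf4 (ENSMUSG00000021356) lies on the plus strand of chromosome 13 (GRCm38, chr13:30749226-30766976), in 10 exon blocks of 4903 bases that overlap no other annotated exon. The Con mice, in the order of their replicate numbers, had 38.6, 42.8 and 35.6 CPM of it, and the Van mice had 25.03, 29.2 and 24.9 CPM. The groups were separate, and the highest Van mouse stayed below the lowest Con mouse. The mean was 39.0 ± 3.62 CPM in Con and 26.4 ± 2.45 CPM in Van (SD, n = 3 each). The fitted difference was -0.57 on the log2 scale (SE 0.09, 95% interval -0.78 to -0.35, adjusted p = 0.0304, edgeR), so that the level fell by 32.4%. The exact two-sided permutation test of the CPM gave p = 0.1, the smallest value that 3 mice against 3 allow. Irf4 rested on an estimated 527 to 962 fragments per library, taking the counts to be made with a read length of 75 bases and the reads to be pairs of 100 bases, which puts counting error at no more than 4.36%.

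The fall of Irf4 kept its direction but not its call when single mice were left out. In the 6 fits without 1 mouse each, the log2 fold change ran from -0.64 without Van replicate 2 to -0.49 without Con replicate 2, and the adjusted p from edgeR ran from 0.0686 to 0.0967. Irf4 therefore passed the threshold in 0 of these 6 fits. In limma on log2(FPKM + 1) its adjusted p was 0.155, and in DESeq2 it was 2.7e-05, the ends of the range over all alternatives.

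Several other cell types express Irf4, and their markers were read in the same libraries. The B cell list summed to 43.4 to 46.1 CPM in Con and 35.4 to 37.8 CPM in Van, with 7 of 7 tested genes lower, none of them called by edgeR (1 at an unadjusted p under 0.05) or by DESeq2, and with the defining gene Pax5 between 0.14 and 1.10 CPM. Plasma cell markers summed to 609 to 701 CPM in Con and 587 to 648 CPM in Van, and T cell markers to 40.8 to 53.7 CPM in Con and 31.8 to 43.2 CPM in Van. The plasma cell sum was carried largely by Igkc and by Xbp1, which is not confined to plasma cells, and 4 of the 6 tested genes were below 0, among them Jchain (log2 fold change -0.38), Igkc (-0.23) and Sdc1 (-0.71), the last with groups that did not overlap. No plasma cell gene was called by edgeR (2 at an unadjusted p under 0.05), and DESeq2 called 1 lower. The T cell sum was carried largely by Cd4 and Cd8a, while Cd3e, Cd3d, Cd3g and Lck had means of at most 1.07 CPM in either group. No T cell gene was called by edgeR (1 at an unadjusted p under 0.05) or by DESeq2. Conventional dendritic cell markers summed to 148 to 200 CPM in Con and 147 to 163 CPM in Van. Of the 9 tested, 8 were below 0, 1 was called by edgeR (3 at an unadjusted p under 0.05) and 2 were called lower by DESeq2. The one called by edgeR was Clec9a, a receptor of cross-presenting dendritic cells. It fell from 11.5, 8.79 and 10.1 CPM in the Con mice to 4.98, 4.18 and 4.81 CPM in the Van mice (log2 fold change -1.12, adjusted p = 0.0131, edgeR). Flt3 went the other way (log2 fold change 0.25) and Xcr1 was lower (-0.85). Both had groups that did not overlap, and neither was called by edgeR. The list held no called gene without Con replicate 3 or without Van replicate 2. The part of these cells in the difference of Irf4 was not tested.

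In CPM, Irf8 and Irf7 were lower in every Van mouse by a smaller margin that did not pass the adjusted threshold. Irf8 (ENSMUSG00000041515; chr8:120736358-120756694, plus strand), the factor of monocyte and dendritic cell development, was at 289, 330 and 289 CPM in Con and at 267, 280 and 261 CPM in Van. All 3 Van mice lay below the Con mice in CPM. In FPKM, Irf8 of Van replicate 2 (86.4) lay above that of Con replicate 1 (85.8). The log2 fold change was -0.17 (SE 0.07, 95% interval -0.32 to -0.01, adjusted p = 0.265, edgeR), and it was -0.10 without Con replicate 2, the highest mouse. Irf7 (ENSMUSG00000025498; chr7:141262706-141266481, minus strand), the amplifier of type I interferon production, was at 242, 244 and 260 CPM in Con and at 222, 210 and 223 CPM in Van. Again no Van mouse reached the lowest Con mouse. The log2 fold change of Irf7 was -0.19 (SE 0.06, 95% interval -0.32 to -0.06, adjusted p = 0.136, edgeR). DESeq2 placed Irf7 at an adjusted p of 0.0412, the lowest over its alternatives, which reached 0.405. For both genes the exact permutation test of the CPM gave p = 0.1. Plasmacytoid dendritic cells, which are rich in both factors, left low traces, with Siglech at 2.89 to 3.75 CPM in Con and 1.45 to 2.35 CPM in Van. Their 7 markers summed to 208 to 225 CPM in Con and 178 to 218 CPM in Van, most of it from Runx2 and Tcf4. Of the 7, 5 were below 0, none was called by edgeR (3 at an unadjusted p under 0.05), and DESeq2 called 1 lower. Cox6a2 (log2 fold change 0.37) was higher in Van with groups that did not overlap, and Klk1 (0.10) was higher with overlap. The part of these cells in Irf7 and Irf8 was not tested.

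The 3 members whose groups did not overlap in CPM are shown by the 250 bases before their RefSeq start (GRCm38.p6, gene strand, 5′ to 3′). They are shown since all of them hold the letters TATAAA near the start. Capitals mark TATAAA, searched on the gene strand only, and TTCNNNGAA, the letters of the STAT-binding element GAS, searched on both strands. The windows are chr13:30748983-30749232 on the plus strand for Irf4, chr8:120736108-120736357 on the plus strand for Irf8 and chr7:141266425-141266674 on the minus strand for Irf7.
Irf4: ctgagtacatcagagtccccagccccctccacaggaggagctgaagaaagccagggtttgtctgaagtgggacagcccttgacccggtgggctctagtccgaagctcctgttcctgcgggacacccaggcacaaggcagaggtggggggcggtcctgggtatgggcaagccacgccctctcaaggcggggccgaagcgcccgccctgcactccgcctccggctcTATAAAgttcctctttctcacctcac
Irf8: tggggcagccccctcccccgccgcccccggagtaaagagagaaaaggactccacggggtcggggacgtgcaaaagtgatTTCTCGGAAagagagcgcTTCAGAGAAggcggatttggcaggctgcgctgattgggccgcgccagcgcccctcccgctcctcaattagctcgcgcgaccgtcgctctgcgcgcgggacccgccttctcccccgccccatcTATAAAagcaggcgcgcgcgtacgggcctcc
Irf7: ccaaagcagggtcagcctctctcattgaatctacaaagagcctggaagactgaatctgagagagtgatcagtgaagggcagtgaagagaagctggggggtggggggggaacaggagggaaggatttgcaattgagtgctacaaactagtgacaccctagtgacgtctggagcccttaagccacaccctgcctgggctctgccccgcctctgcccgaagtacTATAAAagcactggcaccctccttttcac
TATAAA began 26 bases before the start in Irf4, 31 in Irf8 and 29 in Irf7, and it was found in 7.59% of 32851 promoter windows of the same length. The other 5 members had no such letters in this window. Irf8 held GAS letters at 171 and 153 bases before the start, and 7.02% of all windows held them at least once. These are descriptions of letters, and the motifs were chosen with the expression values known.

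Irf1 (ENSMUSG00000018899; chr11:53770014-53778374, plus strand) varied more between Con mice than any other member. Levels in Con were 529, 286 and 308 CPM, and levels in Van were 340, 275 and 273 CPM. Con replicate 1 was 1.78 times the mean of the other Con mice, and the groups overlapped. The coefficient of variation within Con was 35.9% for Irf1, and the other members had between 1.30% and 9.29%. The fitted log2 fold change was -0.34 (SE 0.21, 95% interval -0.83 to 0.15, adjusted p = 0.496, edgeR). Without Con replicate 1 it was -0.0054, so that the difference rested on that mouse. The promoter of Irf1 (chr11:53769764-53770013, plus strand) is shown because it carries binding letters of both pathways known to induce this gene, GAS at 90 bases and an NF-kB site (searched on both strands) at 13 bases before the start, in capitals.
Irf1: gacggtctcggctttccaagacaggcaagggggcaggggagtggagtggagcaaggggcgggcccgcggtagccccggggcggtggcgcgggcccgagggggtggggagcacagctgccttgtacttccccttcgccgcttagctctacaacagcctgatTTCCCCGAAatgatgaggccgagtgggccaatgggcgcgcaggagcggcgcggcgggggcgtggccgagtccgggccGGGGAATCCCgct
GAS letters occurred in 7.02% and the NF-kB site in 3.90% of all windows. Irf2 was the other member with both, and it alone of the 8 had the interferon-stimulated response element, GAAA and GAAA with any 2 bases between (2.98% of all windows), and the ETS-IRF composite, GGAA and GAAA with any 2 bases between (2.30%), both searched on both strands and overlapping each other in its window.

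Irf5, Irf3, Irf2 and Irf9 were close to level between the groups, with narrow intervals. Irf5 (ENSMUSG00000029771), the inflammatory cytokine regulator of macrophages, was at 513, 515 and 496 CPM in Con and at 521, 481 and 519 CPM in Van. The fitted difference of -0.0029 (log2, 95% interval -0.13 to 0.12) changed sign under library size scaling (0.0011) and in other fits. Irf3 (ENSMUSG00000003184), the latent factor below TLR3, TLR4 and the cytosolic sensors, was at 50.6, 55.5 and 52.2 CPM in Con and at 53.6, 53.8 and 59.4 CPM in Van. The Irf3 groups overlapped, with a log2 fold change of 0.08 (95% interval -0.08 to 0.23). Irf2 (ENSMUSG00000031627) was at 177, 173 and 174 CPM in Con and at 192, 175 and 180 CPM in Van, and its difference was 0.06 (log2, 95% interval -0.07 to 0.19). In FPKM, Irf2 was at 59.1, 57.8 and 59.5 in Con and at 64.4, 60.3 and 60.6 in Van, with no overlap. Irf9 (ENSMUSG00000002325), the DNA-binding subunit of ISGF3, was at 128, 122 and 118 CPM in Con and at 126, 126 and 132 CPM in Van, and its difference was likewise 0.06 (log2, 95% interval -0.07 to 0.19). The adjusted p of these 4 genes lay between 0.655 and 0.988 (edgeR). None of the 4 intervals reached a fall as large as the upper end of the Irf4 interval, -0.35.

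Irf5 lies at chr6:29526625-29541871, Irf3 at chr7:44997648-45002848, Irf2 at chr8:46739732-46847458 and Irf9 at chr14:55603571-55610030, all on the plus strand of GRCm38. Exons of 411 bases in Irf5 (14.1% of its exon length) overlap Tnpo3 on the other strand. The overlap of Irf9 with Rnf31 on the same strand covers 2.28% of its exons, and Irf1, Irf3 and Irf7 have opposite-strand overlaps of 3.40%, 2.56% and 1.19% of their exons. The use of strand in counting is not given in the sources used here, so that reads from these stretches are uncertain.

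**Figure D2:**
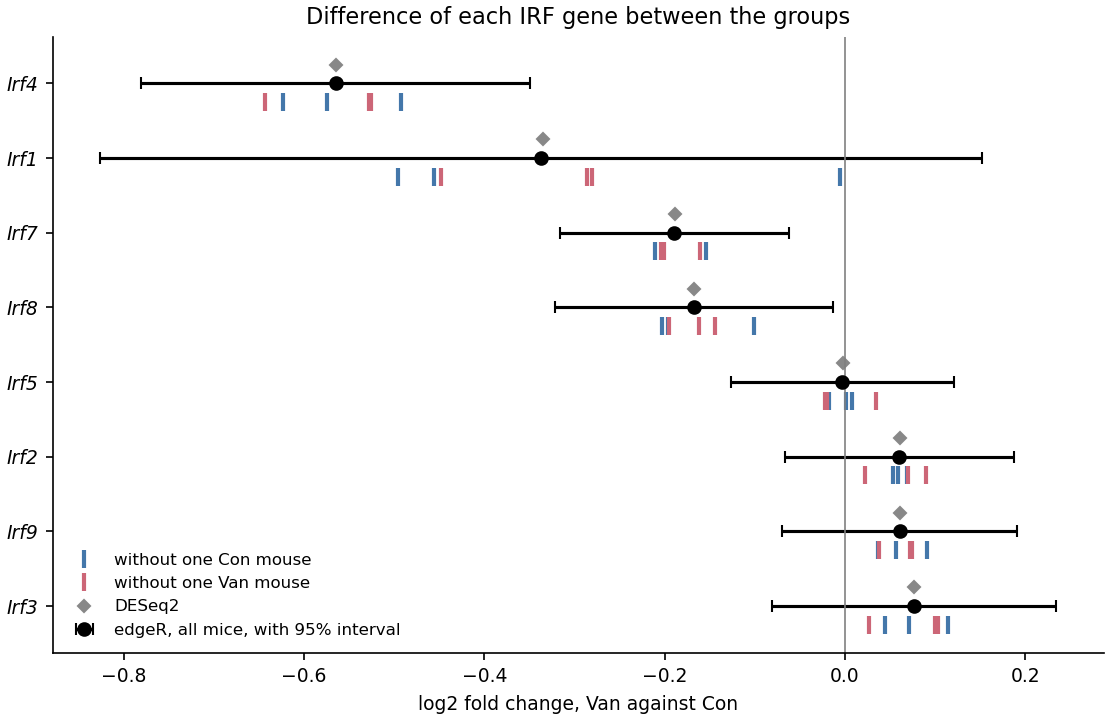
Log2 fold change of each member, Van against Con (x axis), with members ordered by size (y axis). Black points with bars are the edgeR values with 95% intervals, short lines are fits without a single mouse, and diamonds are DESeq2. Irf4 stays between -0.64 and -0.49 without any single mouse, and Irf1 moves to -0.0054 without Con replicate 1.

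Whether Irf4 moved apart from the other members was asked within each mouse, as the log2 ratio of its CPM to that of each other member. The difference between groups in this ratio was below 0 for all 7 members, which follows from Irf4 having the lowest fold change of the 8 and, since its fall was already known, is no independent evidence of it. Relative to Irf5, its competitor for MyD88, the log2 ratio was -3.73, -3.59 and -3.80 in Con and -4.38, -4.04 and -4.38 in Van. The Irf5 ratio did not overlap between groups and was lower by a mean of 0.56 log2 units in Van. Relative to Irf8, the closest relative of Irf4 in the family, it was -2.90, -2.95 and -3.02 in Con and -3.42, -3.26 and -3.39 in Van. The Irf8 ratio had no overlap either, with a Van minus Con difference of -0.40. Differences were -0.62 for Irf2, -0.64 for Irf3 and -0.63 for Irf9, again with no overlap. Relative to Irf7 the difference was -0.37, and the groups overlapped because Van replicate 2 (-2.85) lay above Con replicate 3 (-2.87). Relative to Irf1 the difference was -0.28, with Con replicate 1 the lowest of the 6 mice. That difference was -0.56 without Con replicate 1 and -0.04 without Con replicate 2. The exact two-sided permutation test gave p = 0.1 for the 5 pairs with no overlap, p = 0.2 for Irf7 and p = 0.5 for Irf1, and adjusted values over the 7 pairs of 0.14, 0.233 and 0.5. No pair could pass 0.05 in a design of 3 against 3. All 7 ratios share the Irf4 values of the same mice.

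**Figure D3:**
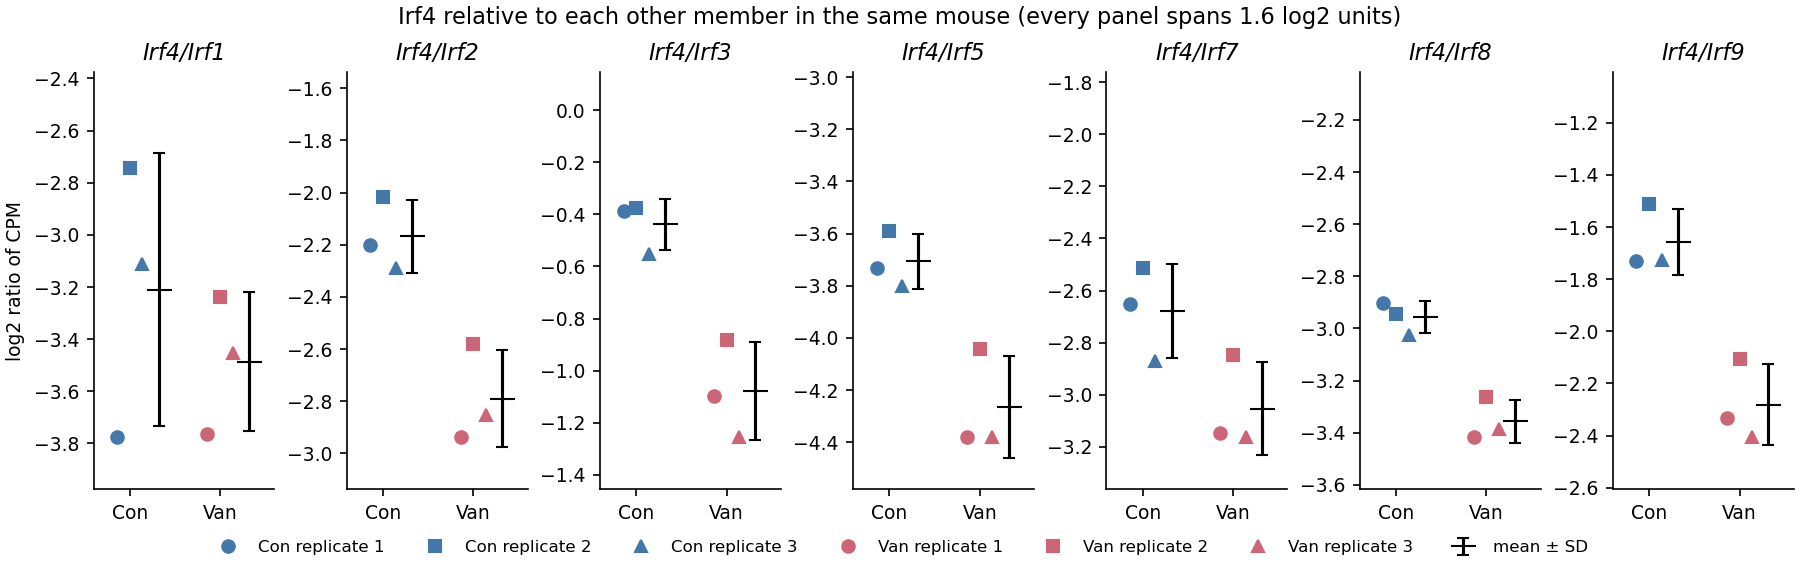
Log2 ratio of Irf4 CPM to the CPM of each other member in the same mouse (y axis, 1.6 log2 units in every panel) for Con and Van mice (x axis), with the mean and SD of each group. The groups are separate for Irf2, Irf3, Irf5, Irf8 and Irf9 and overlap for Irf1 and Irf7.

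Per transcript length, in fragments scaled to kilobases of transcript and library size (FPKM), Irf4 was the least abundant of the 8 members. Mean levels over the 6 mice were 198 FPKM for Irf5, 140 for Irf1, 105 for Irf7, 86.0 for Irf8, 60.3 for Irf2, 38.3 for Irf9, 28.6 for Irf3 and 5.82 for Irf4. Neighbours in this order overlapped between mice for Irf5 and Irf1, Irf1 and Irf7, and Irf7 and Irf8, and the 4 lower pairs did not overlap. Irf4 was at 6.78, 7.53 and 6.42 FPKM in Con and at 4.43, 5.31 and 4.42 FPKM in Van. These levels made up 0.91% to 1.14% of the FPKM of the 8 members in Con and 0.67% to 0.86% in Van. Irf5 stood at 26.3 to 46.0 times the FPKM of Irf4, depending on the mouse.

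**Figure D4:**
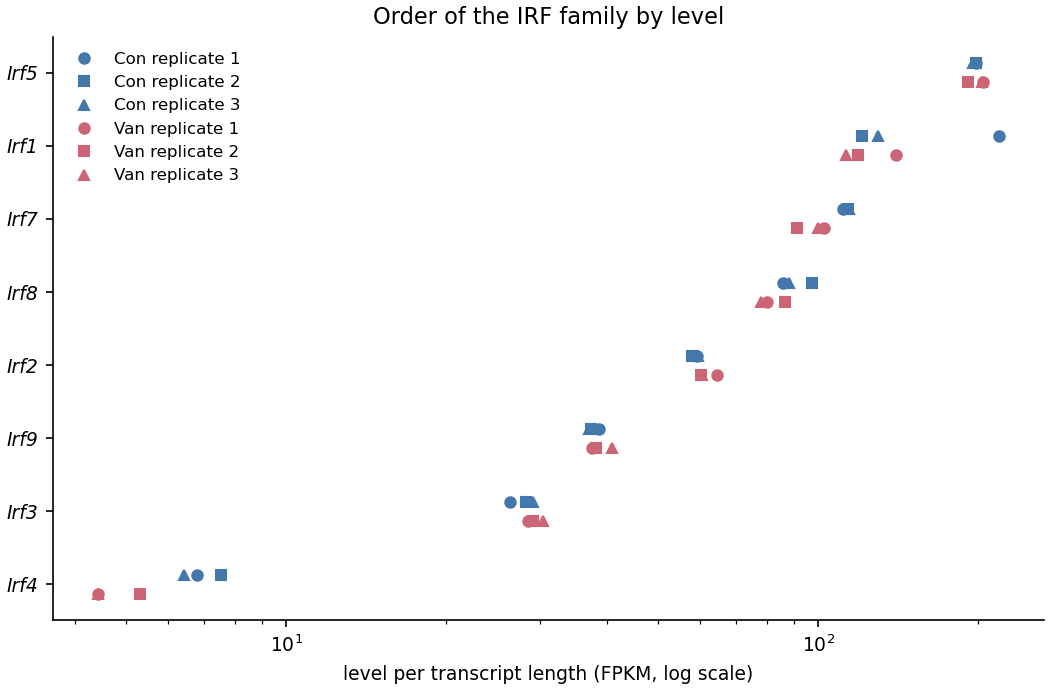
Level of each member in FPKM (x axis, log scale) in each mouse, with members ordered by mean level (y axis). Irf4 lies below every other member in all 6 mice, and Irf5 and Irf1 overlap because of Con replicate 1 in Irf1 (218 FPKM).

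Genes with the most similar pattern to Irf4 were sought by Pearson's r of log2 CPM over the 6 libraries, among 9910 genes with a mean of at least 5 CPM. The measure contains the group difference itself and serves as a description. The 5 closest were Clec2i, a C-type lectin-like ligand (r = 0.996), Slc25a16 (0.994), Cysltr1, a receptor for cysteinyl leukotrienes (0.992), Dnajc27 (0.989) and Bre (0.987). Their log2 fold changes ran from -0.83 for Cysltr1 to -0.21 for Bre, and since the genes were chosen on these libraries they are given without a test. The 5 most opposite were Upf1, the helicase of nonsense-mediated decay (-0.993), Pde12 (-0.993), Adam8, a membrane metalloproteinase (-0.990), Madd (-0.989) and Mgme1 (-0.987), with log2 fold changes from 0.20 for Upf1 to 0.63 for Mgme1. By the same measure Irf8 was at 0.91, the highest of the members, and 197 genes reached 0.9 or more. None of the 10 genes named here belongs to the lists of IRF pathway genes that follow.

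Genes above and below the IRFs were described from 7 lists of 88 distinct genes, of which 82 were tested. Of the 82, 5 passed the threshold in edgeR with all mice, all of them lower in Van, the interferon-induced Ifit2, Ifit3, Mx1 and Oasl2 and the RNA sensor Ifih1, where 2.00% of all genes were called and 0.917% were called lower. In the fits without a single mouse, 0 to 3 genes passed. DESeq2 called 16, of which 4 were higher in Van. Over the 7 lists 56 of the 82 genes had a fitted difference below 0, against 50.4% of all genes, and 33 had an unadjusted p under 0.05, against 16.5% of all genes.

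Among activators of the IRFs (20 tested), 12 were below 0, against 50.4% of all genes, and 1 was called by edgeR, with a median log2 fold change of -0.11. DESeq2 called 2 lower and 2 higher. Ifih1, which encodes the double-stranded RNA sensor MDA5 above IRF3 and IRF7, was at 127, 137 and 138 CPM in Con and at 108, 104 and 99.4 CPM in Van. Its groups were separate, and the log2 fold change was -0.37 (SE 0.06, adjusted p = 0.0300, edgeR), a call that held in 1 of the 6 fits without a single mouse. The most abundant activators were the RNA-sensing receptors Tlr7 (log2 fold change 0.11, adjusted p = 0.336) and Tlr8 (0.14, 0.395), the endosomal transporter Slc15a4 (0.26, 0.0778) and the kinase Irak1 (-0.09, 0.520). Interferon receptors and their kinases (7 tested) had 1 gene below 0 and a median of 0.05, with none called by edgeR (1 at an unadjusted p under 0.05) or by DESeq2. The most abundant were Ifngr1 (log2 fold change 0.09, adjusted p = 0.423), Jak1 (0.02, 0.916), Jak2 (-0.20, 0.291) and Tyk2 (0.07, 0.669).

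Partners of the IRFs (18 tested) had 12 genes below 0 and a median of -0.07. None was called by edgeR (7 at an unadjusted p under 0.05), and DESeq2 called 3 lower and 1 higher. Among the most abundant were the AP-1 subunits Junb (log2 fold change -0.08, adjusted p = 0.612) and Jund (0.34, 0.0769) and Spi1, which encodes PU.1 (-0.01, 0.944). Spi1, the partner through which IRF4 and IRF8 bind ETS-IRF sites, was at 581, 549 and 609 CPM in Con and at 599, 565 and 559 CPM in Van. The groups overlapped.

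Targets of ISGF3 and IRF7 had the lowest median of the 7 lists with all mice in the fit, and IRF1 targets had a lower one without Con replicate 2 (-0.33 against -0.31) or Van replicate 1 (-0.36 against -0.33). All 15 tested targets had a fitted difference below 0, with a median of -0.33, and 4 were called, where 0.917% of all genes were called in that direction. In 11 of the 15 every Van mouse was below every Con mouse, which held for 11.0% of all genes. Summed over the list, the level was 953, 1005 and 1026 CPM in Con and 804, 804 and 778 CPM in Van. Ifit2, an interferon-induced protein that binds viral RNA, was at 60.9, 52.0 and 62.4 CPM in Con and at 39.8, 33.8 and 30.8 CPM in Van. It fell by 0.75 on the log2 scale (SE 0.11, adjusted p = 0.0200, edgeR). Ifit3 of the same family fell from 52.7, 59.8 and 62.4 CPM to 40.5, 39.7 and 33.9 CPM (log2 fold change -0.62, adjusted p = 0.0223). The interferon-induced gene Mx1 fell by 0.41 (adjusted p = 0.0259), and Oasl2, of the oligoadenylate synthetase family, fell by 0.36 (adjusted p = 0.0416). Of these 4, Ifit2 and Ifit3 were called in 2 of the 6 fits without a single mouse, Mx1 in 1 and Oasl2 in 0. The interferon genes Ifna4 and Ifnb1 did not pass the filter on low counts.

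Targets of IRF1 were mostly highest in the same Con mouse as Irf1. Of 13 tested, 12 were below 0, with a median of -0.25. None was called by edgeR with all mice (5 at an unadjusted p under 0.05), and DESeq2 called 1 lower and 1 higher. Of the other settings, 6 called 1, which was higher in Van with no filter and with the replicate block and lower in the rest. Con replicate 1 held the highest level of the 6 libraries in 10 of the 13, where it did so in 18.3% of all genes, a count made after the Irf1 values were seen. Tap1, the peptide transporter of antigen presentation, was at 376 CPM in that mouse, at 257 and 278 CPM in the other Con mice and at 276, 210 and 233 CPM in Van (log2 fold change -0.34, adjusted p = 0.300). Without Con replicate 1 the median of the list was -0.14 and 11 of 13 were below 0. The other abundant targets were B2m (log2 fold change -0.06, adjusted p = 0.771), Vcam1 (0.46, 0.0621) and Psmb8 (-0.20, 0.326). Vcam1 is also a marker of red pulp macrophages, whose 6 markers summed to 2262 to 2757 CPM in Con and 2592 to 3453 CPM in Van, and the part of those cells was not tested.

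Targets of IRF4 and IRF8 gave few tested genes. In edgeR none was called (2 of the IRF4 and 2 of the IRF8 targets at an unadjusted p under 0.05), and DESeq2 called 1 IRF4 target lower and no IRF8 target. Of 7 IRF4 targets tested, 4 were below 0 and the median was -0.0025. The 2 at an unadjusted p under 0.05 were both lower in Van, Ikzf3 (log2 fold change -0.66, adjusted p = 0.113) and Ccl22 (-0.41, 0.232). The most abundant IRF4 targets were Chil3, a chitinase-like protein of alternatively activated macrophages (log2 fold change 0.56, adjusted p = 0.496), Ikzf1 (-0.06, 0.646), Xbp1 (0.11, 0.527) and Bcl6 (0.01, 0.967). Chil3 was at 605, 562 and 288 CPM in Con and at 536, 483 and 1120 CPM in Van, with overlapping groups. Retnla and Ccl17 did not pass the filter. Of 5 IRF8 targets, 3 were below 0 with a median of -0.06. Cybb, the catalytic subunit of the phagocyte oxidase, was at 2688, 2457 and 2494 CPM in Con and at 2378, 2180 and 2130 CPM in Van (log2 fold change -0.19, adjusted p = 0.174). Among the other abundant targets were Cst3 (-0.06, 0.714) and Klf4 (0.30, 0.192). All adjusted p-values for list genes are from the edgeR fit over all genes.

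**Figure D5:**
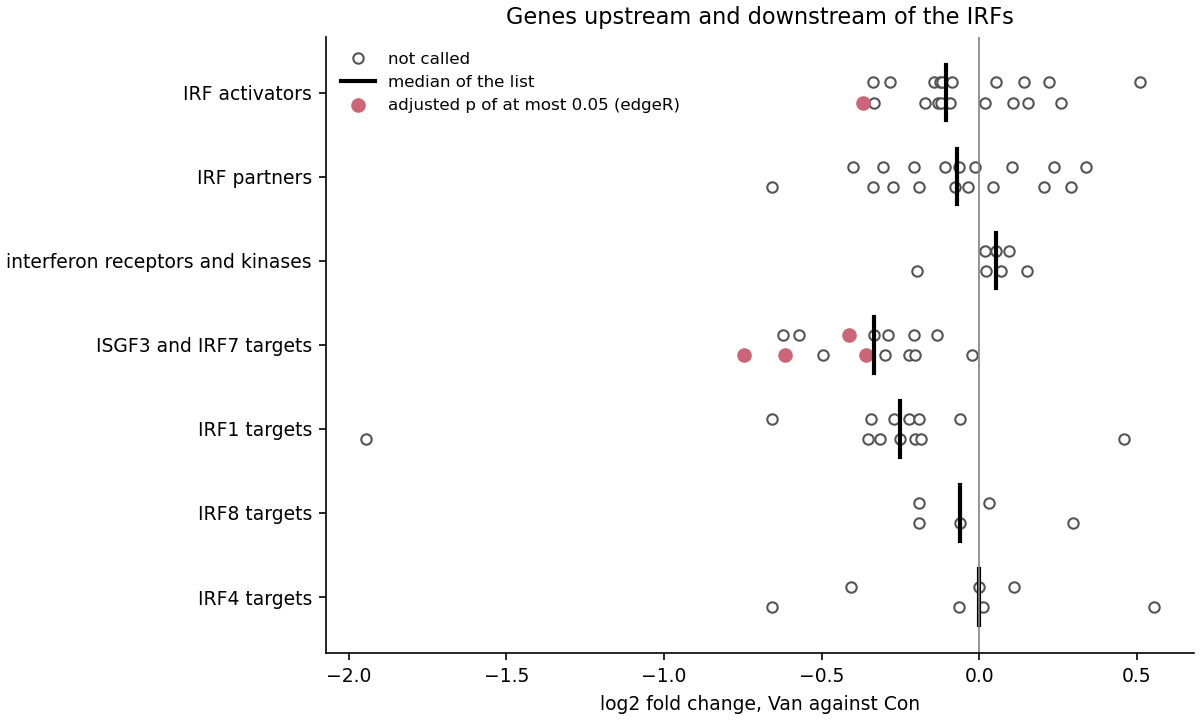
Log2 fold change, Van against Con (x axis), of each tested gene in the 7 lists of IRF pathway genes (y axis). Filled points passed an adjusted p of 0.05 in edgeR, open points did not, and thick lines are the list medians, from -0.33 for ISGF3 and IRF7 targets to 0.05 for interferon receptors and kinases.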

How the data were processed

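Messenger RNA of splenic monocytes was read in 3 Con and 3 Van libraries, grouped by the treatment in the labels. Per the submitters' processing notes, the authors used HISAT2 2.2.1, SAMtools 1.9, StringTie 2.1.3 and tximport 1.26.1. The authors deposited estimated counts per gene, which need not be whole and are not scaled to library size, and FPKM values, scaled to transcript length and library size. From their values, the counts appear to have been made with a read length of 75 bases although reads of 100 bases are described, so a fragment scale was tried. Libraries of Van mice given lipid (VanLip) were not analysed here.

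Counts were rounded, filtered (filterByExpr, minimum count 10), scaled by TMM and tested with edgeR 4.0.16 in R 4.3.3, with Benjamini-Hochberg adjustment over all genes. SE is the fold change divided by the root of its F statistic. Alternatives used DESeq2 1.42.0 and limma 3.58.1. In simulated data on 16138 genes with 200 changed, edgeR recovered 135 with 5 false calls. Recovery at the fold changes of the members was not tested. Coordinates are from GENCODE M21 and RefSeq promoters matched 8 of 8 members by symbol.

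Named were the members, list genes that were called or up to 4 per list by level, and the 5 genes at each end of likeness to Irf4. Some further marker and list genes, tested or not, were named outside this rule to describe their lists. The members, lists and tests were chosen with earlier results of these data known. A few genes that this rule or the lists take in are not reported here by name.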

Additional observations from a re-analysis of the deposited data

How the results depend on the processing

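With 16 alternatives run, Irf4 stayed lower in all 16 and was called in 8. Genes called (322) became 965 with DESeq2, 110 with the replicate block, 11 with limma on log2(FPKM + 1), 21 on log2(FPKM + 0.1), and 21 to 136 without single mice. The higher share moved from 174 of 322 to 491 of 965, 66 of 110, 9 of 11 and 16 of 21, and, without Con replicates 1, 2 and 3 and Van replicates 1, 2 and 3 in turn, to 71 of 136, 30 of 50, 20 of 22, 69 of 116, 18 of 21 and 55 of 93. Members called (1) became 2 with DESeq2, 0 and 0 with limma, and 0 to 0 without single mice. Genes of the IRF pathway lists called (5) became 16 with DESeq2 (4 higher), 8 with no filter (1 higher), 8 with at least 10 counts in every library, 8 on the fragment scale, 2 with the replicate block (1 higher), 0 and 0 with limma, and 0 to 3 without single mice. The Irf5 log2 fold change changed sign with library size alone (0.0011), no filter (0.00082) and without Con replicate 1 (0.0016), Con replicate 2 (0.0077) or Van replicate 2 (0.0346), in a range without single mice of -0.0224 to 0.0346. The causes were not tested. The replicate numbers did not pair the samples: correlations of same-numbered deviations were 0.0253, -0.0019 and -0.0726. Limits are 3 mice a group, and a permutation test that cannot pass 0.05.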
